A study of Mus musculus with 24 samples.

Results

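The 10 genes of serine synthesis and of the ATF4 amino acid response described here were Phgdh, Psat1, Psph, Shmt2, Mthfd2, Asns, Atf4, Ddit3, Trib3 and Chac1. They were taken by gene name from the non-control spots of the scanner files, which gave 10 genes on 15 probes out of 23769 named genes on 55681 probes. The data were 24 one-colour Agilent arrays of mouse RNA in 6 groups of 4. All mice were C57BL/6 males aged 10 weeks and weighing 20 to 30 g, and no genetic change was named for any group. The groups labelled TAM, for tumour-associated macrophages, were isolated with a Percoll gradient and 1 hour of adhesion, from either naive or post-sepsis animals, the latter at 14 days from induction. The labels used here did not name the tumour line. The groups labelled M0 were adherent marrow progenitors of naive mice, or of post-sepsis mice at 14 days from induction. They were grown for 7 days in RPMI with 20% L929 supernatant and 10% FBS. M1 and M2 cultures came from naive marrow in the same medium, and at day 3 received either lipopolysaccharide (10 ng/mL) plus interferon-gamma (50 ng/mL) for M1, or IL-10 (20 ng/mL) for M2. TAM naive replicate 2, which the submitters had marked as excluded, was left out, so n = 3 for TAM naive, n = 4 for the other groups, and 23 arrays were used.

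Serine is made from a glycolytic intermediate in 3 steps, catalysed in order by PHGDH, PSAT1 and PSPH. Mitochondrial SHMT2 and MTHFD2 then pass its side-chain carbon to folate, which feeds purine and thymidylate synthesis in growing cells. ATF4 is a transcription factor whose protein is made when eIF2 is phosphorylated, as in amino acid shortage or endoplasmic reticulum stress, and its known targets include the serine enzymes, ASNS, TRIB3, CHAC1 and, under stress, DDIT3 (CHOP).

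ATF4 with a C/EBP partner is known to bind CARE elements, whose core was searched as TGATGNAA on both strands in RefSeq windows of GRCm38.p6 that run from 250 bases upstream to 50 bases downstream of each start site. All 10 genes had a window, 11 in all because Psat1 had 2, and the core was found in 3 of the 11. Of all windows, 3.969% held it (1304 of 32851). By gene, 3 of the 10 members held it, against 4.511% of all genes with a window (1219 of 27025). The core lay 23 bases upstream of the start of Asns on the gene's own strand. It lay 193 bases upstream of the start of Chac1 and 14 bases downstream of that of Trib3, both on the opposite strand. The stretches of 120 bases around these cores are shown on the gene's strand because these are the members that held the core, which is in capitals. Asns is on the minus strand at chr6:7693210-7693329, Chac1 on the plus strand at chr2:119351012-119351131 and Trib3 on the minus strand at chr2:152344031-152344150.
Asns: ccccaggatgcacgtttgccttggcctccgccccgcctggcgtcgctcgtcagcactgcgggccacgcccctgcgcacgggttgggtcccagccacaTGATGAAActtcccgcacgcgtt
Chac1: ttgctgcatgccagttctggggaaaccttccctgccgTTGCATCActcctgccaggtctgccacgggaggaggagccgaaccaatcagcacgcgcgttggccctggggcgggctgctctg
Trib3: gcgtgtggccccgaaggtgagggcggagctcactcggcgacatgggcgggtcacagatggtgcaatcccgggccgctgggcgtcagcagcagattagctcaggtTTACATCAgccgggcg
The core was not among the letters of the other windows. A match in sequence is a description and not a measured binding site.

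Levels are log2 processed intensities minus the 75th percentile of the same array, so that a level of 0 is the array's 75th percentile, and levels of different genes are not compared because each comes from its own probe. All 15 probes were well above background on every array used. Differences are given as log2 with the standard error of the limma fit. A gene was called when its Benjamini-Hochberg adjusted p over all genes tested was under 0.05. Each probe without a gene name was tested as a gene of its own. The genes tested, 29670 in M0 post-sepsis against M0 naive, thus include unnamed probes, and so do the shares of all genes tested. In the 23 arrays, 56.9% to 69.7% of probes were well above background. The TAM samples had been chosen by absorbance ratios from 3 experiments, and the marrow samples from 2, without a statement of which sample came from which, so the p-values measure the spread between the chosen samples. In the deposited log2 value table of the authors, 22 of 24 columns ranked the spots most like the scanner file of another sample, and in 19 columns that sample belonged to another group. In the scanner files the melanocyte genes Tyrp1 and Dct were bright in 8 of 8 TAM arrays and 0 of 16 marrow arrays, against 4 of 8 and 4 of 16 in the value table, so the scanner files and their labels are used. Tyrp1 and Dct tell only TAM from marrow arrays. They cannot check the labels among the marrow groups, or naive against post-sepsis within TAM, and those labels were taken as given.

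The arrays labelled TAM did not have the marker pattern of macrophages. The 13 macrophage markers had a mean level of 0.26 to 1.73 on TAM arrays and of 4.85 to 6.46 on M0 arrays. In TAM naive against M0 naive, 12 of the 13 were lower, with a median difference of -5.56, and Adgre1, the F4/80 antigen, was at -7.57 ± 0.38. All 13 probes were still well above background on the TAM arrays, so no defining marker was absent. The 8 melanocyte markers were all higher, with a median of 10.8, and all 9 fibroblast markers were higher as well, with a median of 7.92. Every TAM value below comes from RNA with this marker pattern. In such bulk samples, fewer cells of a type and less RNA per cell cannot be told apart. On the marrow arrays, Tyrp1 and Dct were not well above background in M0 naive or M0 post-sepsis.

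**Figure D1:**
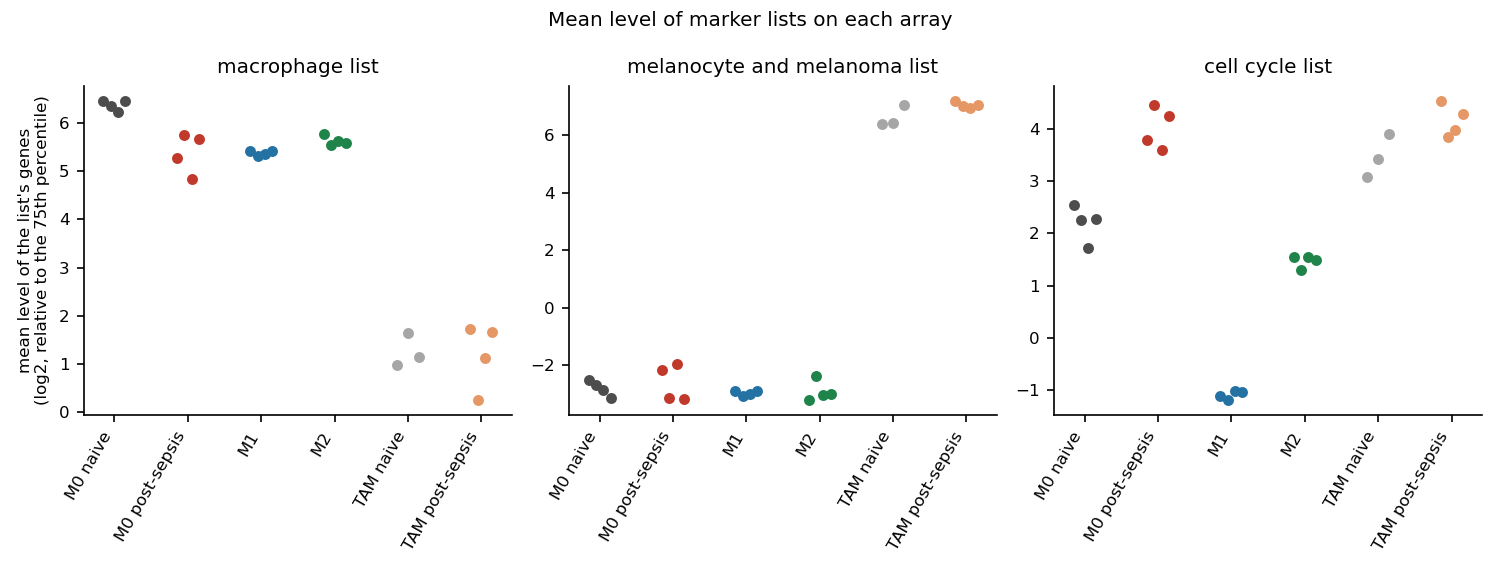
Mean log2 level of the genes of 3 marker lists on each array (vertical axis, relative to the array's 75th percentile), with 1 point per array and the 6 groups along the horizontal axis. The macrophage list is lower and the melanocyte list far higher on the arrays labelled TAM, and the cell cycle list is high in M0 post-sepsis and low in M1.

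The first comparison set unpolarized cultures from the marrow of post-sepsis mice against those from naive mice. All enzymes of serine synthesis, both mitochondrial one-carbon enzymes, Asns, Trib3, Chac1 and Atf4 were higher in M0 post-sepsis, and Ddit3 was lower. Psat1 was higher by 14.0-fold, Chac1 and Phgdh by 10.3-fold each and Atf4 by 2.26-fold. Of all genes tested, 10.7% were called, 5.4% as higher and 5.34% as lower, against 9 higher and 1 lower of these 10. The 2 groups did not overlap for any of the 10, nor for 12% of all genes tested. The median difference of the 10 was 2.83, against 0.04 over all genes tested.

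Phgdh, the first and committing enzyme of serine synthesis, was at 1.75, 2.04, 2.65 and 2.05 on the M0 naive arrays and at 5.28, 5.77, 5.37 and 5.50 on the M0 post-sepsis arrays. The lowest post-sepsis array lay far above the highest naive one, and the difference was 3.36 ± 0.36 (limma adjusted p = 1.37e-05). Psat1, the aminotransferase of the second step, was at 1.33, 1.45, 0.75 and 1.50 in M0 naive and at 4.98, 5.52, 4.58 and 5.20 in M0 post-sepsis. The groups did not overlap, and the difference of 3.81 ± 0.23 (limma adjusted p = 4.72e-08) was the widest of the 10 genes in this comparison. The second Psat1 probe gave 2.24 ± 0.39 (limma adjusted p = 0.00103). Psph, the phosphatase that releases serine, was at 0.40 to 0.87 in M0 naive and 2.59 to 3.42 in M0 post-sepsis, a difference of 2.38 ± 0.21 (limma adjusted p = 2.87e-06). In the 3 genes the post-sepsis arrays were thus all above the naive ones.

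Shmt2, which splits serine into glycine and a one-carbon unit, was at 0.53, 0.15, -0.31 and 0.09 in M0 naive and at 3.24, 3.73, 2.79 and 3.46 in M0 post-sepsis. Its difference was 3.19 ± 0.27 (limma adjusted p = 1.38e-06), with no overlap. Mthfd2, the dehydrogenase and cyclohydrolase that acts on the folate-bound carbon, was at 0.87 to 1.83 and at 3.45 to 4.22. Its difference of 2.25 ± 0.24 (limma adjusted p = 1.26e-05) included a post-sepsis replicate 2 at 4.22, with the other 3 arrays at 3.45 to 3.52. Asns, which makes asparagine, was at 3.36, 2.94, 2.47 and 2.91 in M0 naive and at 5.69, 6.25, 5.55 and 6.09 in M0 post-sepsis. Its difference of 2.98 ± 0.22 (limma adjusted p = 3.92e-07) was an increase of 7.87-fold.

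Among ATF4 and its feedback genes, Atf4 itself was at 7.17, 6.80, 6.52 and 6.83 in M0 naive and at 7.69, 8.30, 7.74 and 8.31 in M0 post-sepsis. The difference of 1.18 ± 0.20 (limma adjusted p = 0.000784) was the smallest of the 9 increases, and the groups did not overlap. With each array centred on its median, the difference was 1.09 and its adjusted p was 0.10, and the second Atf4 probe gave 1.17 ± 0.37 (limma adjusted p = 0.057). Trib3, a pseudokinase that restrains ATF4, rose from 1.47 ± 0.41 to 4.15 ± 0.35 (SD, n = 4 each), a difference of 2.69 ± 0.25 (limma adjusted p = 3.44e-06). Chac1, a glutathione-degrading enzyme, was at -1.81 to -0.46 in M0 naive and at 1.81 to 2.71 in M0 post-sepsis, a difference of 3.37 ± 0.26 (limma adjusted p = 6.09e-07).

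Ddit3, which encodes the pro-apoptotic factor CHOP, went the other way. It was at 1.96, 1.53, 1.40 and 1.90 in M0 naive and at 0.24, 1.21, 0.16 and 1.36 in M0 post-sepsis. All 4 post-sepsis arrays were below the naive ones, 2 of them by a small step and 2 by more, and the difference was -0.95 ± 0.26 (limma adjusted p = 0.0234). The call was lost without M0 post-sepsis replicate 1 (-0.79, adjusted p = 0.077) or replicate 3 (-0.76, adjusted p = 0.064), and without M0 naive replicate 1 (-0.87, adjusted p = 0.062) or replicate 4 (-0.89, adjusted p = 0.077). It was also lost with median centring (-1.04, adjusted p = 0.22) and with only these 2 groups in the fit (-0.95, adjusted p = 0.20).

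**Figure D2:**
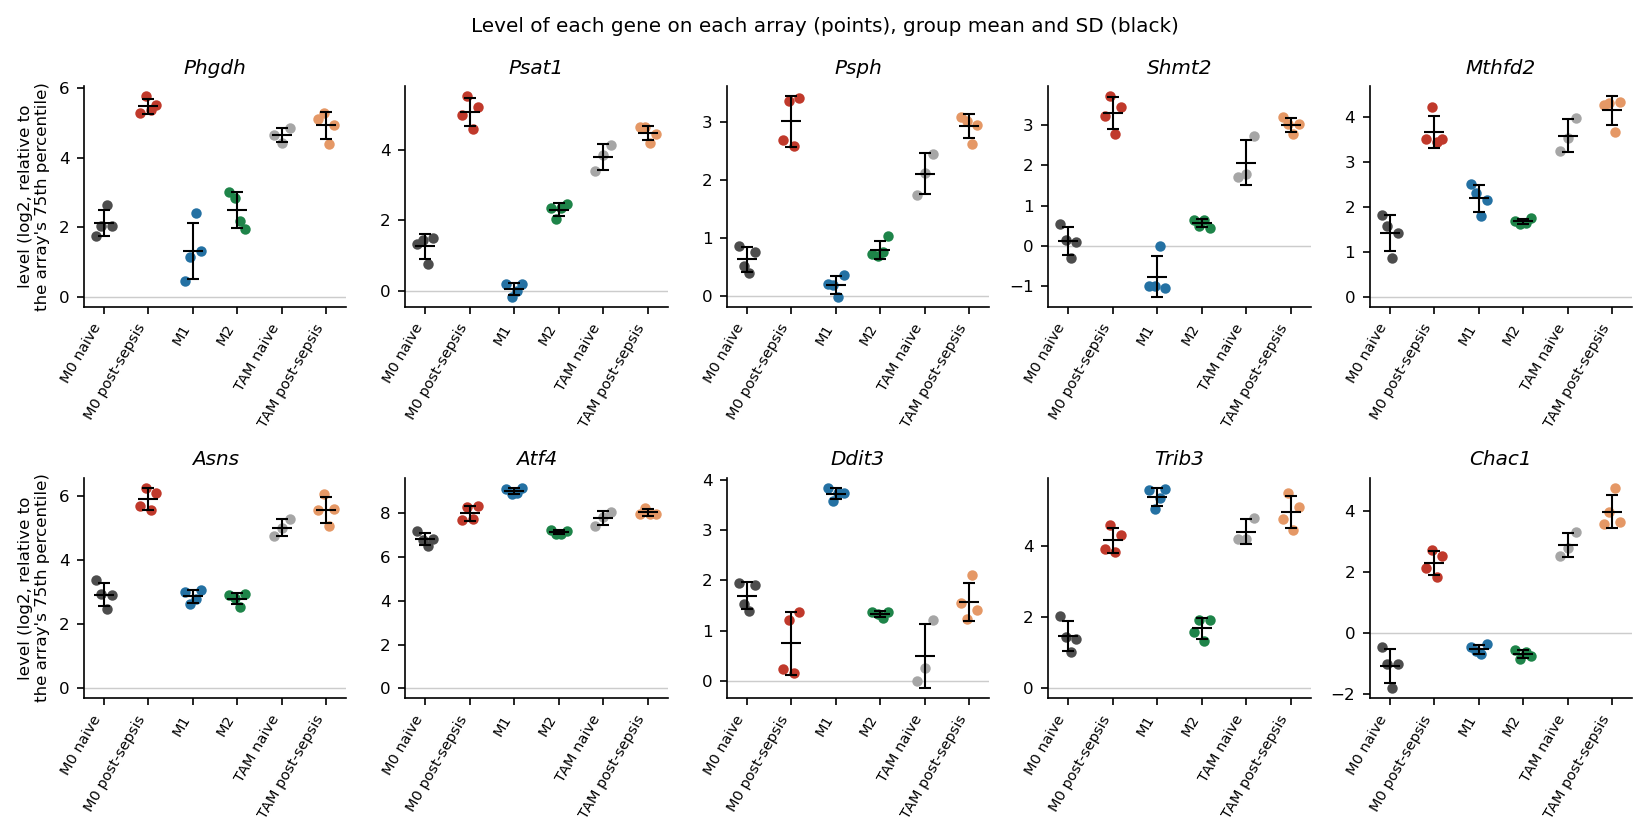
Log2 level of each of the 10 genes on each of the 23 arrays (vertical axis, relative to the array's 75th percentile), in 6 groups along the horizontal axis, with the group mean and SD in black. The serine and one-carbon genes are high in M0 post-sepsis and both TAM groups, whereas Atf4, Ddit3 and Trib3 are highest in M1.

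Within slides 2 and 3, each of which held arrays of both M0 groups, all 10 genes kept the sign of their difference, with medians of 2.80 and 2.67. Other markers moved between these groups too. Of the 20 cell cycle genes, 19 were higher in M0 post-sepsis, with a median of 1.94, and their mean level was 3.60 to 4.44 against 1.72 to 2.53. Of the 13 macrophage markers, 9 were lower and 1 higher, with a median of -1.17, and of the 10 neutrophil markers 6 were lower and 1 higher. The dendritic cell markers had a mean level of -2.63 to -1.93 in M0 post-sepsis against -3.53 to -3.08 in M0 naive. Of the 5 tested, 2 were higher, Itgax by 1.71 ± 0.23 and Cd209a, not well above background on any M0 naive array, by at least 4.67-fold. The part of these shifts in the differences of the 10 genes was not tested.

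The wider pathway was read from lists of other genes. Of the 17 amino acid transporters tested, 5 were higher in M0 post-sepsis and 1 was lower. They included Slc6a9, a glycine transporter (4.19 ± 0.24), Slc7a5, the light chain of a large neutral amino acid exchanger (3.68 ± 0.30), and Slc7a1, a cationic amino acid transporter (2.14 ± 0.22). Of 21 cytosolic aminoacyl-tRNA synthetases, 10 were higher and none lower, with a median of 0.65, led by Mars1 at 1.69 ± 0.27, Aars at 1.60 ± 0.23 and Vars at 1.55 ± 0.26. Among 21 other one-carbon and folate enzymes, 5 were higher and 2 lower. The widest changes there were in Aldh1l2 (2.80 ± 0.52) and Mthfd1l (2.37 ± 0.26), both mitochondrial like Shmt2 and Mthfd2.

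Of 23 other ATF4 targets and partners tested, 9 were higher and 2 lower. Stc2, which encodes a secreted glycoprotein, was not well above background on any M0 naive array and was at least 4.92-fold higher in M0 post-sepsis. Aldh18a1, of proline synthesis, was higher by 2.97 ± 0.38, and Gadd45a, a growth arrest gene, was lower (-2.39 ± 0.25). Of 15 genes of serine and glycine use, 3 were higher, among them Cth (2.46 ± 0.33), the last enzyme of cysteine synthesis, whose probe was well above background on 1 of 4 M0 naive arrays, and Gcat (2.32 ± 0.21), of threonine breakdown. Of 12 genes of the eIF2 kinases and phosphatases, none was called higher and Impact, a regulator of the kinase GCN2, was lower (-1.02 ± 0.25). Of 18 genes of the IRE1 and ATF6 arms of the unfolded protein response, 7 were higher, led by the chaperone Hyou1 (1.59 ± 0.21). All of these genes passed the limma test at an adjusted p under 0.05, and the lists were chosen with results of these data known.

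**Figure D3:**
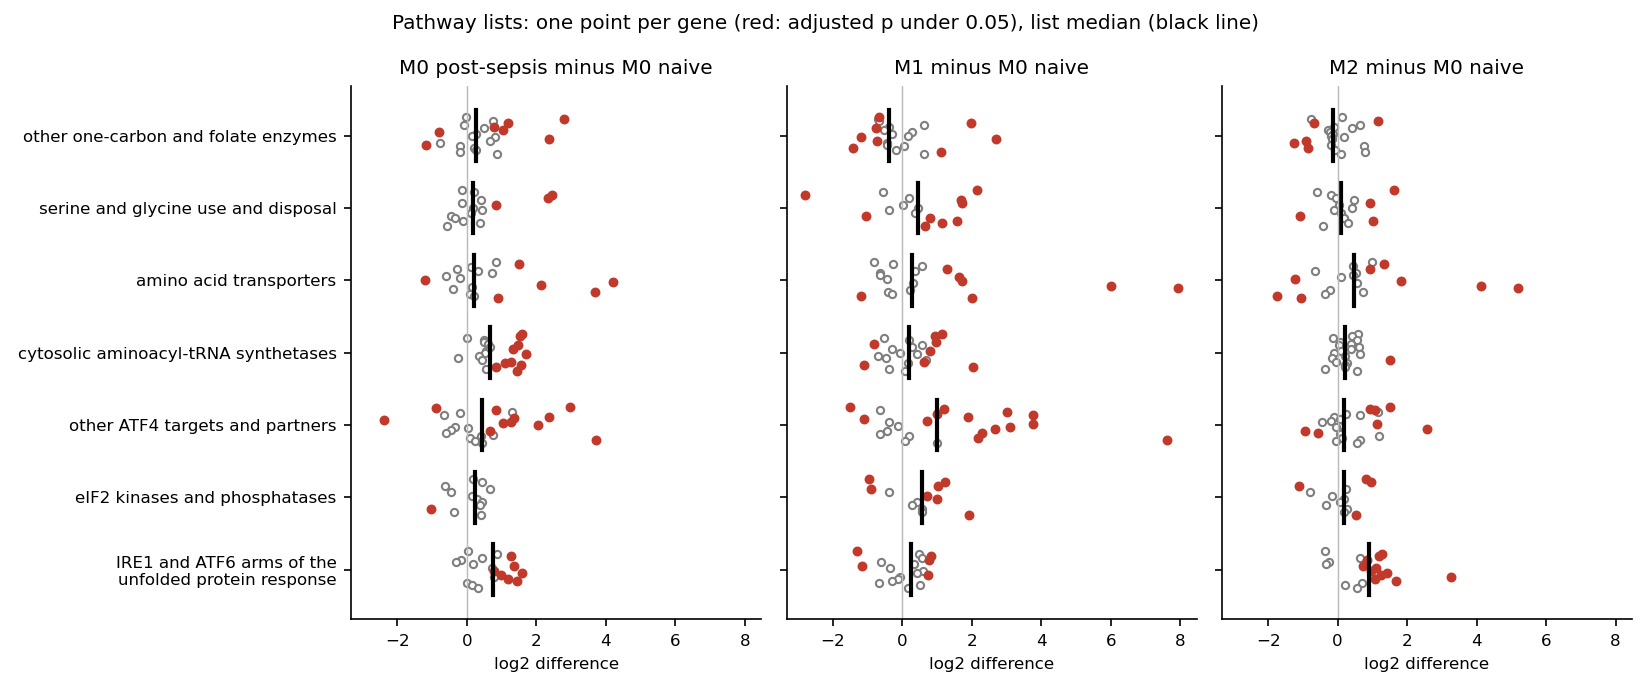
Log2 differences against M0 naive (horizontal axis) for each tested gene of 7 pathway lists (rows), in M0 post-sepsis, M1 and M2, with red points for genes at an adjusted p under 0.05 and a black line at the list median. The transporter and ATF4 target lists hold the widest single changes, and the tRNA synthetases shift higher in M0 post-sepsis.

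In M1 cultures, activated with interferon-gamma and lipopolysaccharide, the 10 genes split. Atf4, Ddit3, Trib3 and Mthfd2 were higher than in M0 naive, whereas Psat1 and Shmt2 were lower. Of all genes tested, 26.8% were called, 12.5% as higher and 14.4% as lower, against 4 and 2 of these 10. The comparisons of M0 post-sepsis, M1 and M2 with M0 naive share the same 4 M0 naive arrays, so their values stand side by side and are not independent.

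Atf4 was at 9.13, 8.87, 8.91 and 9.18 in M1, above every array of the other groups, and differed from M0 naive by 2.19 ± 0.20 (limma adjusted p = 3.84e-07). Ddit3 was at 3.85, 3.58, 3.74 and 3.75, a difference of 2.04 ± 0.26 (limma adjusted p = 1.27e-05). Trib3 was at 5.55, 5.03, 5.35 and 5.59, which was 15.1-fold above M0 naive (3.91 ± 0.25, limma adjusted p = 6.85e-09). None of these 3 genes overlapped between M1 and M0 naive. Chac1, however, was at -0.69 to -0.35 in M1, overlapping M0 naive at -1.81 to -0.46, and its difference of 0.55 ± 0.26 was not called (limma adjusted p = 0.153).

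Psat1 was at 0.19, -0.18, -0.02 and 0.19 in M1, below every M0 naive array, with a difference of -1.21 ± 0.23 (limma adjusted p = 0.000587). Its second probe, at chr19:15991586-15991645 of mm9 against chr19:15979622-15979681 for the main one, gave -0.02, and the mean of both probes gave -0.62 (adjusted p = 0.053), so the decrease in M1 rested on the main probe. Shmt2 was at -1.01, -0.995 and -1.06 on 3 M1 arrays and at -0.01 on replicate 3, and differed by -0.88 ± 0.27 (limma adjusted p = 0.0199). Phgdh was at 0.46, 1.15 and 1.31 on the same 3 arrays and at 2.40 on replicate 3, and its difference of -0.79 ± 0.36 was not called (limma adjusted p = 0.128). Without M1 replicate 3 it was -1.15 (adjusted p = 0.011). Psph was at -0.01 to 0.37, below all M0 naive arrays, and was not called either (-0.45 ± 0.21, limma adjusted p = 0.156).

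Mthfd2 was higher in M1 by 0.77 ± 0.24 (limma adjusted p = 0.0216), with 1.81 to 2.52 against 0.87 to 1.83. The small changes of Shmt2 and Mthfd2 turned on single arrays. The Shmt2 call was lost without M1 replicate 1 (-0.80, adjusted p = 0.063), replicate 2 (-0.81, adjusted p = 0.061) or replicate 4 (-0.79, adjusted p = 0.066), and without M0 naive replicate 1 (-0.75, adjusted p = 0.063). The Mthfd2 call was lost without M1 replicate 1 (0.67, adjusted p = 0.077) or replicate 2 (0.73, adjusted p = 0.058), and without M0 naive replicate 3 (0.59, adjusted p = 0.068). Chac1 was called without M0 naive replicate 1 (0.75, adjusted p = 0.035). Asns was at 2.62 to 3.07 in M1 and 2.47 to 3.36 in M0 naive, and the difference was -0.05 ± 0.22 (limma adjusted p = 0.911). With the arrays centred on their medians, Psat1 (-1.06, adjusted p = 0.057), Shmt2 (-0.73, adjusted p = 0.23) and Mthfd2 (0.92, adjusted p = 0.095) were no longer called, while Atf4, Ddit3 and Trib3 were.

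In M1, 12 of 22 other ATF4 targets tested were higher and 2 lower, with a median of 1.00. Stc2 was at least 74.0-fold higher, Jdp2, a repressor of AP-1, was higher by 3.78 ± 0.24, and Ddit4, an inhibitor of mTORC1, by 3.75 ± 0.24. Among the transporters, 6 of 18 were higher and 1 was lower. The cystine transporter Slc7a11 was higher by 6.02 ± 0.52, with its probe above background on 2 of 4 M0 naive arrays, and the arginine transporter Slc7a2 by 7.94 ± 0.25, with its probe above background on 3 of 4. Of the one-carbon enzymes, 3 of 21 were higher and 5 lower, and Mthfd1l rose here as well (2.70 ± 0.26). Of the 12 genes of the eIF2 kinases and phosphatases, 5 were higher, led by Ppp1r15b (1.91 ± 0.17), a regulatory subunit of the eIF2 phosphatase, and 2 were lower. Gcat fell by 2.79 on the log2 scale. All 20 cell cycle genes were lower in M1, with a median of -3.28 and mean levels of -1.18 to -1.01, and the part of this in the lower Psat1 and Shmt2 was not tested.

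In M2 cultures, which received IL-10, only Psat1 of the 10 genes was called, against 11.2% of all genes tested, with 4.32% higher and 6.85% lower. Psat1 was at 2.34, 2.03, 2.35 and 2.47, above every M0 naive array, with a difference of 1.04 ± 0.23 (limma adjusted p = 0.00627). With median centring it was 1.18 (adjusted p = 0.084) and was not called. Of all genes called in M2, 38.7% were higher, and with median centring 53.0%. The other 9 genes differed from M0 naive by -0.37 to 0.44, and Ddit3, at 1.24 to 1.38, lay below every M0 naive array without being called (-0.37 ± 0.26, limma adjusted p = 0.437). For Atf4 the 2 probes differed: the main probe gave 0.31 ± 0.20 and the other, at chr15:80086639-80086698 of mm9, 1.31 ± 0.37 (limma adjusted p = 0.031). Of the 18 genes of the IRE1 and ATF6 arms, 11 were higher in M2 and none lower, led by the disulphide isomerase Pdia4 (3.27 ± 0.35).

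**Figure D4:**
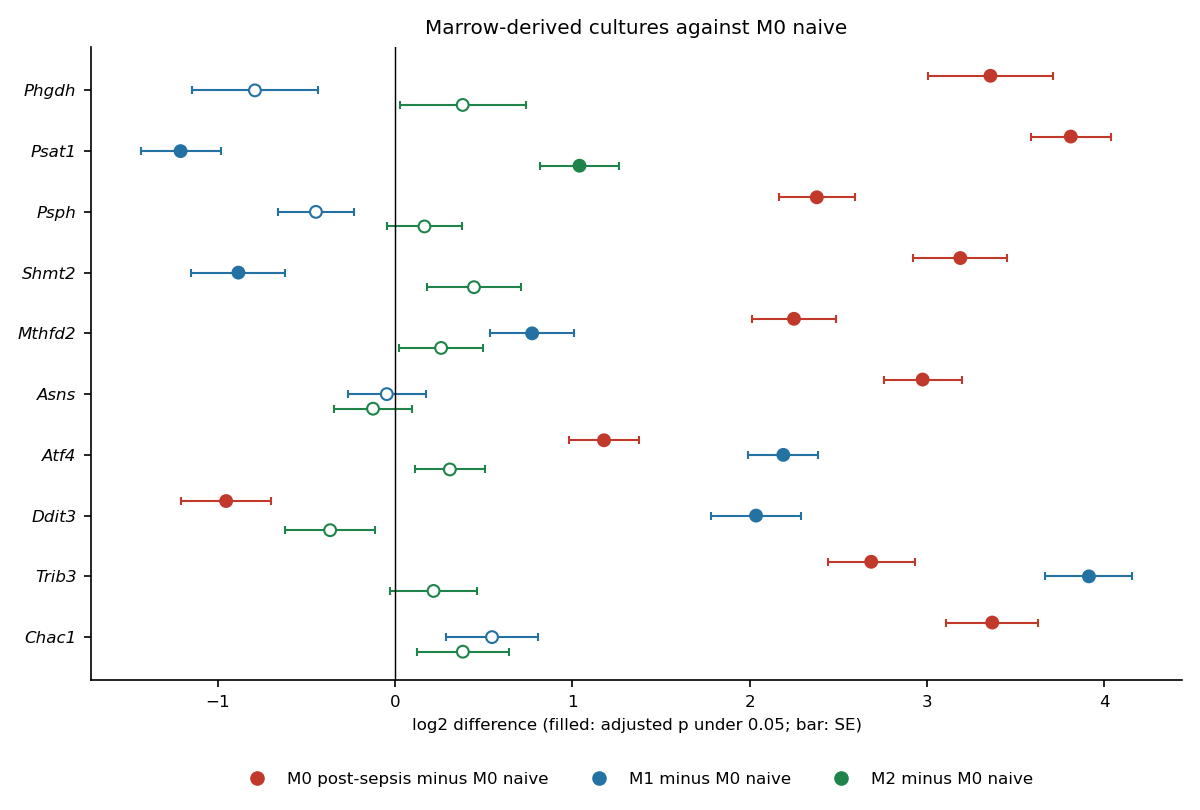
Log2 difference from M0 naive (horizontal axis) of the 10 genes (rows) in M0 post-sepsis, M1 and M2, with the standard error as bars and filled points for genes at an adjusted p under 0.05. All genes but Ddit3 are called higher in M0 post-sepsis and Psat1 is the gene called in M2, while Atf4, Ddit3 and Trib3 have their highest differences in M1.

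The polarized cultures were also compared directly. In M1 against M2, Atf4 (1.88 ± 0.20), Ddit3 (2.40 ± 0.25) and Trib3 (3.70 ± 0.24) were higher and Psat1 (-2.25 ± 0.22), Shmt2 (-1.33 ± 0.26), Phgdh (-1.17 ± 0.35) and Psph (-0.61 ± 0.21) lower, with 30% of all genes called. Mthfd2, Asns and Chac1 were not called. The Psph call (limma adjusted p = 0.0394) was lost when any 1 of M1 replicates 1 to 3 or of the 4 M2 arrays was left out, with differences of -0.65 to -0.53 and adjusted p-values of 0.055 to 0.12. The Phgdh call (limma adjusted p = 0.0193) was lost without M1 replicate 1 (-0.88, adjusted p = 0.074), M2 replicate 1 (-0.998, adjusted p = 0.061) or M2 replicate 2 (-1.06, adjusted p = 0.056).

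In M0 post-sepsis against M1, all 10 genes were called, 7 higher and 3 lower, against 30.9% of all genes, 16.4% higher and 14.5% lower. Psat1 was 32.5-fold higher (5.02 ± 0.23), Phgdh 17.8-fold and Shmt2 16.8-fold, and Asns, Psph, Chac1 and Mthfd2 were higher by 1.48 to 3.02. Atf4 (-1.01 ± 0.20), Trib3 (-1.23 ± 0.25) and Ddit3 (-2.99 ± 0.26) were lower, so the serine enzymes and Atf4 differed in opposite directions between these groups, with no overlap for any of the 10. Of all genes tested, 29.5% did not overlap between these groups. Of all called genes 53.0% were higher, or 42.0% with median centring. In M0 post-sepsis against M2, 9 of the 10 were higher, by 0.87 to 3.10, and Ddit3 was not called (-0.59 ± 0.26, limma adjusted p = 0.129). It was called without M0 post-sepsis replicate 4 (-0.79, adjusted p = 0.028). In that comparison 18.2% of all genes were called, 11.1% as higher and 7.03% as lower, and the higher share of calls was 61.3%, or 46.2% with median centring. Atf4 was the smallest of the 9 (0.87 ± 0.20, limma adjusted p = 0.00565), and its second probe gave -0.14 ± 0.37. The second Psat1 probe gave 0.89 ± 0.39 (limma adjusted p = 0.127) in the same comparison. As the mean of its probes Psat1 stayed called (1.83, limma adjusted p = 2.54e-05), and Atf4 did not (0.36, limma adjusted p = 0.36).

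The order of group means summarized these levels. M0 post-sepsis was the highest of the 6 groups for Phgdh, Psat1, Psph, Shmt2 and Asns, with TAM post-sepsis and TAM naive next, and M1 was the lowest for the first 4 of these. Neighbours in that order did not separate for every gene: M0 post-sepsis overlapped TAM post-sepsis for Psat1, Psph, Shmt2 and Asns, and M2 overlapped M0 naive for Phgdh, Psph and Shmt2. M0 naive was the lowest group for Atf4, Trib3, Chac1 and Mthfd2. M1 was the highest for Atf4, Ddit3 and Trib3, with no overlap with the next group for Atf4 and Ddit3, and TAM post-sepsis was the highest for Chac1 and Mthfd2. Asns in M0 naive, M1 and M2, at 2.92, 2.87 and 2.79, overlapped throughout.

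Over the 23 arrays, the log2 levels of Psat1 and Shmt2 had a Pearson r of 0.98, those of Psat1 and Psph 0.97 and those of Asns and Chac1 0.92. Atf4 and Trib3 had an r of 0.91, whereas Atf4 and Psat1 had -0.06 and Ddit3 and Psat1 -0.73. These values describe arrays that fall into 6 groups on 3 slides, and are given without a test. Among 11991 genes ranked by the same measure, those most like Psat1 were Gpsm2, Srm, Ndc1, Fads2 and Rfc5 (r = 0.97 to 0.96). Srm, which makes spermidine, was at 1.56 in M0 naive, 3.66 in M0 post-sepsis, 0.63 in M1 and 2.25 in M2. It was at 3.17 in TAM naive and highest in TAM post-sepsis, at 3.99, whereas Psat1 was highest in M0 post-sepsis. Those most like Asns were Recql4, Pkn3, Gchfr, Alyref and Sfxn1, the mitochondrial serine transporter (r = 0.97 to 0.96). Among those most like Chac1 were Slc7a1, Macrod2, Srd5a1 and Mtbp (r = 0.98 to 0.97). Those most like Atf4 were Smco4, Rdh11, Wars, Eif4ebp1 and Slc16a3 (r = 0.96 to 0.95). Wars is a tryptophanyl-tRNA synthetase and Eif4ebp1 a repressor of cap-dependent translation.

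The series was set up to compare TAM of post-sepsis mice with TAM of naive mice. All 10 differences lay above 0, from 0.27 for Atf4 to 1.10 for Chac1, with a median of 0.62, and none was called by limma. Over all genes tested, 0% were called, 11215 of 28938 had an unadjusted p under 0.05, and 50.2% of differences lay above 0. With median centring the median over all genes moved from 0.01 to 0.54. Of the 10 genes, 5 had an unadjusted p under 0.05. Chac1 was at 2.53, 2.77 and 3.31 in TAM naive and at 3.56, 3.95, 4.75 and 3.62 in TAM post-sepsis, a difference of 1.10 ± 0.35 (limma adjusted p = 0.111). Ddit3 was at 0.00, 0.25 and 1.22 against 1.55, 1.22, 2.11 and 1.41, a difference of 1.08 ± 0.36 (limma adjusted p = 0.111). Shmt2 was at 1.70, 1.78 and 2.73 against 3.21, 3.04, 2.79 and 3.02, a difference of 0.95 ± 0.29 (limma adjusted p = 0.111). In these 3 genes, in Psat1 and in Psph the groups did not overlap, while Phgdh, Mthfd2, Asns, Atf4 and Trib3 overlapped. For Ddit3 the groups barely separated, with the highest TAM naive array at 1.2199 and the lowest TAM post-sepsis array at 1.2249. Of all genes tested, 24% did not overlap between the TAM groups.

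The arrays lay on 3 slides, and the TAM comparison depended on how slides were treated. With the slide as a block, 10253 genes were called, among them Psph (0.80), Shmt2 (0.95), Ddit3 (1.13) and Chac1 (1.19), with adjusted p-values of 0.046, 0.044, 0.012 and 0.012. With all 23 arrays in the fit, 3732 genes and the same 4 of the 10 were called. Without TAM post-sepsis replicate 2, 9935 genes and, of the 10, Ddit3 (1.20, adjusted p = 0.034) were called. Within slide 1 and within slide 3 all 10 differences lay above 0, with medians of 0.74 and 1.25. Within slide 2, 5 lay above 0 and the median was -0.01. Slides 2 and 3 each held 1 array of each TAM group, and slide 1 held 1 TAM naive and 2 TAM post-sepsis arrays. The T and NK cell markers had a median difference of -1.42 between the TAM groups, with a mean level of -2.10 to -0.63 against -0.46 to 0.50, and the 20 cell cycle genes had a median of 0.63. The B cell, dendritic cell and neutrophil lists had medians of -2.03, -1.91 and -1.56. No gene of these 5 lists was called in the main fit, but that fit called 0 of all genes tested, so this says nothing particular about the lists. Their part in the differences was not tested.

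TAM arrays were also compared with M0 cultures of the same sepsis status, and most of the 10 genes were higher only in the naive pair. In TAM naive against M0 naive, 9 were higher and Ddit3 was lower, against 35.3% of all genes, 14.4% higher and 20.9% lower. None of the 10 overlapped between these groups, and 39.2% of all genes tested did not. Chac1 was 15.4-fold higher (3.94 ± 0.31), Trib3 7.61-fold (2.93 ± 0.28), Psat1 5.79-fold (2.53 ± 0.24) and Phgdh 5.77-fold (2.53 ± 0.36), and Ddit3 was at -1.21 ± 0.31 (limma adjusted p = 0.00369). With TAM naive replicate 2, on which Mthfd2 was at -0.42, Psph at -0.63 and Shmt2 at -0.98, Psph, Shmt2, Mthfd2 and Atf4 were not called. Atf4 (0.94 ± 0.21) also lost its call with median centring (0.66, adjusted p = 0.15) and as the mean of its probes (0.73, adjusted p = 0.056). These differences stand beside the melanocyte and fibroblast markers above, and 16 of 20 cell cycle genes were higher here. The part of other cell types in them was not tested.

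In TAM post-sepsis against M0 post-sepsis, 4 of the 10 were called, against 43.3% of all genes, 16.3% higher and 27% lower. The median difference over all genes was -0.34, and 37.6% of the called genes were higher, or 54.4% with median centring. Chac1 was higher by 1.68 ± 0.29 (limma adjusted p = 7.62e-05), with no overlap. Trib3 (0.79 ± 0.26, limma adjusted p = 0.0191) and Ddit3 (0.83 ± 0.29, limma adjusted p = 0.0237) were higher and Psat1 (-0.59 ± 0.22, limma adjusted p = 0.0354) lower, each with overlapping groups. Each of these 3 calls was lost when single arrays were left out. Trib3 was not called without TAM post-sepsis replicate 2 (0.61, adjusted p = 0.067) or M0 post-sepsis replicate 1 (0.71, adjusted p = 0.056) or 3 (0.68, adjusted p = 0.061). Ddit3 was not called without TAM post-sepsis replicate 3 (0.65, adjusted p = 0.091) or M0 post-sepsis replicate 1 (0.66, adjusted p = 0.089) or 3 (0.64, adjusted p = 0.094), and within slide 3 its difference was -0.06.

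Psat1 in that comparison was not called without TAM post-sepsis replicate 3 (-0.50, adjusted p = 0.11) or 4 (-0.58, adjusted p = 0.068), or without M0 post-sepsis replicate 1 (-0.63, adjusted p = 0.050), 2 (-0.44, adjusted p = 0.11) or 4 (-0.55, adjusted p = 0.065). Mthfd2 (0.48 ± 0.24, limma adjusted p = 0.108) was called without TAM post-sepsis replicate 3 (0.64, adjusted p = 0.048) or M0 post-sepsis replicate 2 (0.66, adjusted p = 0.028). With median centring Psat1 was at -0.25 (adjusted p = 0.61).

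The last comparison tested whether the sepsis difference in TAM differed from that in M0. Of the 10 genes, 8 had a smaller sepsis difference in TAM, Ddit3 a larger one, and Atf4 was not called, against 5.46% of all genes, 2% lower and 3.46% higher. The widest gaps were in Psat1 (0.69 in TAM against 3.81 in M0, an interaction of -3.13 ± 0.33, limma adjusted p = 9.47e-06) and Phgdh (0.28 against 3.36, -3.08 ± 0.49, limma adjusted p = 0.000799). The other Phgdh probes gave 0.58 and 0.81 in TAM, 3.53 and 3.90 in M0, and interactions of -2.96 and -3.09. For Ddit3 the sepsis difference was 1.08 in TAM and -0.95 in M0, an interaction of 2.04 ± 0.42 (limma adjusted p = 0.0074). For Atf4 it was 0.27 against 1.18, an interaction of -0.91 ± 0.28 (limma adjusted p = 0.0639), which was called without TAM post-sepsis replicate 2 (-0.98, adjusted p = 0.032) or M0 naive replicate 1 (-1.03, adjusted p = 0.049). The second Atf4 probe gave -0.09 ± 0.58.

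Asns, Chac1, Shmt2, Trib3, Mthfd2 and Psph had interactions of -2.42 to -1.56. The second Psph probe gave -1.15 ± 0.41 and was not called (limma adjusted p = 0.089). As the mean of its probes Psph was called (-1.36, limma adjusted p = 0.026). Within slides 2 and 3 all 10 genes kept the sign of the interaction. The call depended on the scaling. With median centring, Phgdh, Psat1 and Ddit3 stayed called and the other interactions, at -1.80 to -0.94 for the 6 genes that lost their call, had adjusted p-values of 0.051 to 0.23. With TAM naive replicate 2, Psph, Shmt2, Mthfd2, Trib3 and Chac1 were not called. With only the groups compared in the fit, Ddit3 (2.04, adjusted p = 0.070), Psph (-1.56, adjusted p = 0.058) and Mthfd2 (-1.69, adjusted p = 0.063) were not called. Atf4 was called with quantile scaling (-1.01, adjusted p = 0.0078). Of all genes called, 63.4% had a positive interaction, against 87.1% with median centring. The cell cycle list had a median interaction of -1.23, with 10 of 20 genes lower, and the macrophage list one of 1.37, with 5 of 13 higher. Of 10 T and NK cell genes tested 5 had a lower interaction, and of 7 dendritic cell genes 4. The part of these lists in the interactions was not tested.

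**Figure D5:**
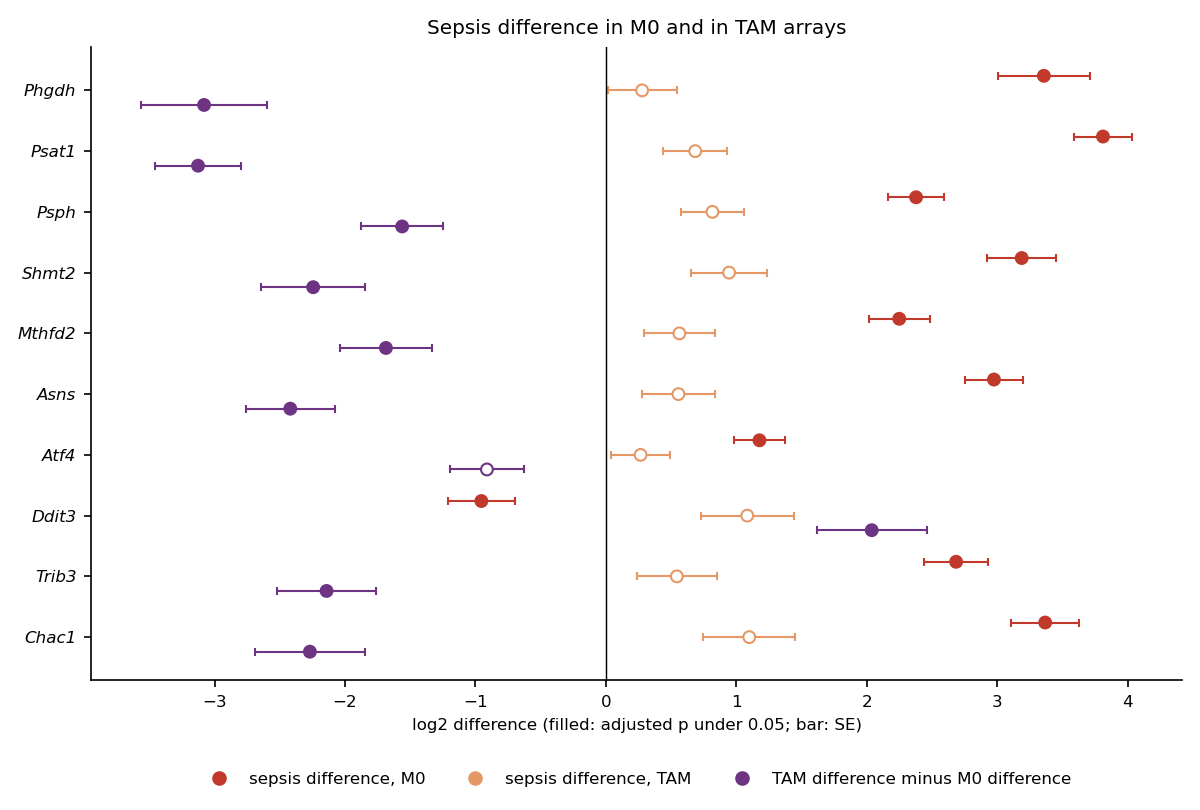
Log2 sepsis difference (horizontal axis) of the 10 genes (rows) in M0 cultures and on TAM arrays, and the TAM difference minus the M0 difference, with the standard error as bars and filled points for genes at an adjusted p under 0.05. The M0 differences lie above 2 for 8 genes, no TAM difference is called, and Ddit3 is the gene whose interaction lies above 0.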

How the data were processed

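RNA of 24 samples was hybridised to one-colour Agilent arrays. The deposited files hold scanner intensity per spot, with background subtracted by Feature Extraction, whose version is 10.7.3.1 per the file headers and 12.5 per the submitters' processing notes. The spot flags are the deposited scanner output. The log2 value table deposited by the authors was used only to check labels, and its scale, centring and direction were not used. The log2 processed intensity minus each array's 75th percentile was analysed. Spots of a probe were averaged, and the probe with the highest mean signal stood for a gene. Tests kept probes that at least 3 arrays of a group compared measured well above background. RefSeq named 27650 probes through an accession, 3406 through a symbol and 321 through an older synonym, 22822 stayed unnamed, and for 1482 the array's own name was used. Each unnamed probe stood as a gene of its own in the tests. Comparisons used limma 3.58.1 in R 4.3.3 (lmFit, eBayes, two-sided, Benjamini-Hochberg). The 16 marrow arrays were fitted together, the 7 TAM arrays together, and all 23 where marrow and TAM were compared. Samples were not paired by replicate number, because the numbers are not known to pair them. Same-numbered deviations, pooled over all the groups, had a median correlation of -0.086 over 55 pairs (-0.595 to 0.708). A pooled median cannot exclude pairing within some of the groups. A bound, written "at least", was the bright group's mean against the lowest signal well above background. The fit was tested on simulated data with independent noise for each gene and array, which held no slide or cell mixture effect. The named genes are the 10 members and, per list and comparison, up to 3 called genes with the widest change. Some genes that this rule names are not reported here. Members and lists were chosen with earlier results of these data known. Alternatives were normexp background, quantile and median scaling, no filter or one on all arrays of a group, the mean over probes, the groups compared alone, slide and replicate blocks, all 23 arrays for the TAM comparison, TAM naive replicate 2 put back, and each array left out.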

Additional observations from a re-analysis of the deposited data

Results flagged for a closer look

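In 4 of 50 gene and group combinations with 4 arrays, the highest or lowest array stood apart from the other 3 by Dixon's gap test, and chance gives about 1 in 20. Atf4 was at 8.25 on TAM post-sepsis replicate 2, with the other arrays at 7.95 to 7.98. Mthfd2 was at 3.68 on TAM post-sepsis replicate 3, against 4.28 to 4.34, and at 4.22 on M0 post-sepsis replicate 2, against 3.45 to 3.52. Shmt2 was at -0.0074 on M1 replicate 3, against -1.06 to -0.995.

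The sepsis difference differed between TAM and M0 by the limma interaction for 9 of the 10 genes. The interaction was -3.08 for Phgdh (adjusted p = 0.000799), -3.13 for Psat1 (adjusted p = 9.47e-06) and -1.56 for Psph (adjusted p = 0.00576). It was -2.24 for Shmt2 (adjusted p = 0.00227), -1.69 for Mthfd2 (adjusted p = 0.00815) and -2.42 for Asns (adjusted p = 0.000277). It was 2.04 for Ddit3 (adjusted p = 0.0074), -2.14 for Trib3 (adjusted p = 0.00246) and -2.27 for Chac1 (adjusted p = 0.00343). The second Psph probe was not called (-1.15, limma adjusted p = 0.089).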

How the results depend on the processing

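Over the alternatives run, 1861 values of single members counted as the same. Fitted values among them kept their direction and side of the threshold, and untested within-slide values moved by no more than their spread. Of the others, 73 lost a call, 24 gained one, 16 changed sign and 116 within-slide values moved by more. A within-slide change of sign was among the 16 only for a gene called in the main fit, so the other counts include further ones. The cause was not tested. With median centring 1254 genes were called in M0 post-sepsis against M0 naive (3186 otherwise), 1435 in M2 against M0 naive (3321) and 824 for the interaction (1736), with 3 members called in M1 against M0 naive, 0 in M2 against M0 naive and 3 for the interaction. With only the groups compared in the fit, so with fewer arrays, 1440 genes were called in M0 post-sepsis against M0 naive, 3095 against M2 (5396), 7338 in TAM post-sepsis against M0 post-sepsis (12950) with 1 member, and 422 for the interaction. Quantile scaling gave 3082 genes for the interaction. With TAM naive replicate 2, 728 genes and 4 members were called for the interaction and 6 members in TAM naive against M0 naive. In TAM post-sepsis against TAM naive (0), the slide block called 10253 genes and 4 members, the replicate block 10316 and 3 (Shmt2, Ddit3 and Chac1), and all 23 arrays 3732 and 4. The replicate block, whose numbers are not known to pair the samples, changed no other member call.

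With each array left out in turn, the genes called ranged from 2391 to 3324 in M0 post-sepsis against M0 naive, with 9 to 10 members, from 6902 to 7677 in M1 against M0 naive, with 4 to 7, and from 2299 to 3675 in M2 against M0 naive, with 1. They ranged from 7374 to 8285 in M1 against M2 (5 to 7 members), from 7975 to 11528 in M0 post-sepsis against M1 (10) and from 4091 to 7375 against M2 (9 to 10). They ranged from 0 to 9935 between the TAM groups (0 to 1), from 9147 to 12384 in TAM naive against M0 naive (10), from 9795 to 14720 in TAM post-sepsis against M0 post-sepsis (1 to 4) and from 826, without TAM naive replicate 1, to 5594, without TAM post-sepsis replicate 2, for the interaction (9 to 10). The sign turned for Asns in M1 against M0 naive (0.10 with median centring, -0.20 to 0.10 without single arrays), in M2 against M0 naive (0.014 and -0.28 to 0.022) and in M1 against M2 (-0.079 with quantile scaling, -0.0098 to 0.16 without single arrays). In TAM post-sepsis against M0 post-sepsis it turned for Psph (0.26 with median centring, -0.23 to 0.049 without single arrays), Shmt2 (0.052 with median centring), Atf4 (-0.076 to 0.13 without single arrays, -0.055 within slide 3) and Ddit3 (-0.061 within slide 3). Within-slide turns of genes not called are not all listed. Within slide 3, Phgdh (0.10) and Chac1 (-0.062) turned in M1 against M0 naive, and 6 of the 10 genes kept their sign in M2 against M0 naive.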
